A study of Mus musculus with 2 samples.

Results

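Among mouse liver barcodes sequenced as single cells, those of intermediate depth with the RNA of a hepatocyte are described here. A barcode is the droplet tag that gathers the transcripts of 1 cell, and a UMI is the tag that marks each captured transcript, so that UMIs count molecules rather than reads. Members were chosen by measured values: at least 3000 and under 10000 UMIs, at most 30% of UMIs from mitochondrial genes, and at least 2% of UMIs from Alb, Apoa1, Apoa2, Ttr and Serpina1c, 5 transcripts of plasma proteins made by hepatocytes. By these limits 397 of 13240 barcodes were members, 228 of 7359 in the chow library (3.10%, exact binomial 95% interval 2.71 to 3.52) and 169 of 5881 in the NASH diet library (2.87%, 2.46 to 3.33). These shares are set by the limits themselves. They are set against hepatocyte barcodes of 10000 UMIs or more that met the other limits, called deep barcodes below, numbering 1839 on chow and 935 on the NASH diet.

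The livers came from C57BL/6 mice on chow or on a NASH diet, which is rich in fructose, fat and cholesterol, for 6.5 weeks. The labels name no transgene or further agent for either group. Cells were freed with collagenase, passed over Percoll at 90% and 25% and spun at 100 g and 1000 g. The study asked how expression in single cells of a fatty, inflamed liver differs from that of a chow-fed liver. Each diet had 1 library, and the sources used here do not state how many mice it pooled, so no difference between diets has a replicate check and no p-value is given.

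Hepatocytes fill most of the liver's mass. They secrete albumin, apolipoproteins and clotting factors through a large endoplasmic reticulum, they are dense in mitochondria, and they divide their metabolic work along the lobule between the portal vein and the central vein. Nuclear noncoding RNAs such as Malat1 stay in the nucleus, whereas mRNAs of ribosomal proteins and of respiratory chain subunits are short and lie in the cytosol.

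The chow library held 71635757 UMIs and the NASH diet library 39440182, at medians of 4843 and 2305 UMIs per barcode. The libraries had 69 barcode sequences in common, none of them a member in both. In all, 2411 chow and 1560 NASH diet barcodes had 3000 to under 10000 UMIs, of which 331 and 294 met the mitochondrial limit. Comparisons below used each barcode thinned at random to 3000 UMIs, which left out no member and no deep barcode. Levels are summed UMIs as CPM, their number scaled to a total of 1000000; where mitochondrial UMIs are left out of the total, the level is written as non-mt CPM, and ratios are log2 of (CPM + 10). A gene is called higher or lower at a ratio of 2-fold or more, if its mean level reached 20 CPM. Intervals are exact 95% intervals for counting error only. They leave out the spread between barcodes, and barcodes of 1 library are not replicates of a condition.

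Alb and Ttr, 2 of the 5 transcripts that chose the members, are given as a description only. Ttr, the carrier of thyroxine and retinol-binding protein, had a median of 17 UMIs of 3000 in chow members (lowest 3, highest 62) and 22 in NASH diet members (3 to 108). In deep barcodes the medians were 12 and 19. Alb, serum albumin, had a median of 24.5 UMIs of 3000 in chow members (0 to 268) and 24 in NASH diet members (3 to 240), below the deep medians of 78 and 122. At least 1 chow member had no Alb UMI after thinning and was chosen through the other transcripts.

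Markers of other liver cells were few. Of 83 markers of 8 other cell types, the 12 of T and NK cells and the 7 of neutrophils were at 0 in the members of both libraries. At least 3 UMIs of any 1 other type were present in 3 of 228 chow members (1.32%, 0.272 to 3.797) and 7 of 169 NASH diet members (4.14%, 1.68 to 8.35), against 5.66% and 2.78% of deep barcodes. Endothelial markers summed to 6 UMIs in chow members and 10 in NASH diet members, with 11 and 9 of 14 markers at 0. Macrophage markers summed to 3 and 7 UMIs, again with 11 and 9 of 14 at 0. Of the 13 mesenchymal markers 10 and 8 were at 0, and the chemokine Cxcl12 gave 58 of 60 and 80 of 84 of their UMIs. Cholangiocyte markers summed to 25 and 11 UMIs, of which Spp1 gave 14 in the chow library and Sox9 gave 8 in the NASH diet library. The 9 B and plasma cell markers had 8 at 0 in each library, with 3 and 10 UMIs from Ly6d. In chow members all 38 erythroid UMIs were from Alas2, the first enzyme of heme synthesis in red cell precursors. In the NASH diet library 1 member carried 1160 erythroid UMIs, nearly all of the haemoglobin transcripts described below.

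The members were not 1 kind of barcode: the share of mitochondrial UMIs split them. Under 10% mitochondrial were 132 of 228 chow members (57.9%) and 71 of 169 NASH diet members (42.0%), against 59 of 1839 (3.21%) and 57 of 935 (6.10%) of deep barcodes. From 10% to 20% lay 41 and 44 members, and from 20% to 30% lay 55 and 54. The medians were 6.16% in chow members (quartiles 2.25 and 19.7) and 13.2% in NASH diet members (5.77 and 21.5), and 18.6% and 23.8% in deep barcodes.

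The share under 10% mitochondrial changed with depth inside the member range. In the chow library it was 65.6% of 64 members at 3000 to under 4000 UMIs, 64.9% of 74 at 4000 to under 6000, 59.6% of 47 at 6000 to under 8000 and 32.6% of 43 at 8000 to under 10000. Beyond the limit it was 9.11% of 439 deep barcodes under 20000 UMIs and 1.36% of the 1400 above. In the NASH diet library the member bins gave 40.0% of 30, 47.2% of 53, 51.4% of 37 and 30.6% of 49, and the deep bins 7.03% of 370 and 5.49% of 565. In both libraries the bin next to the 10000 UMI limit had the lowest share among the members and still exceeded the deep bins.

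**Figure D1:**
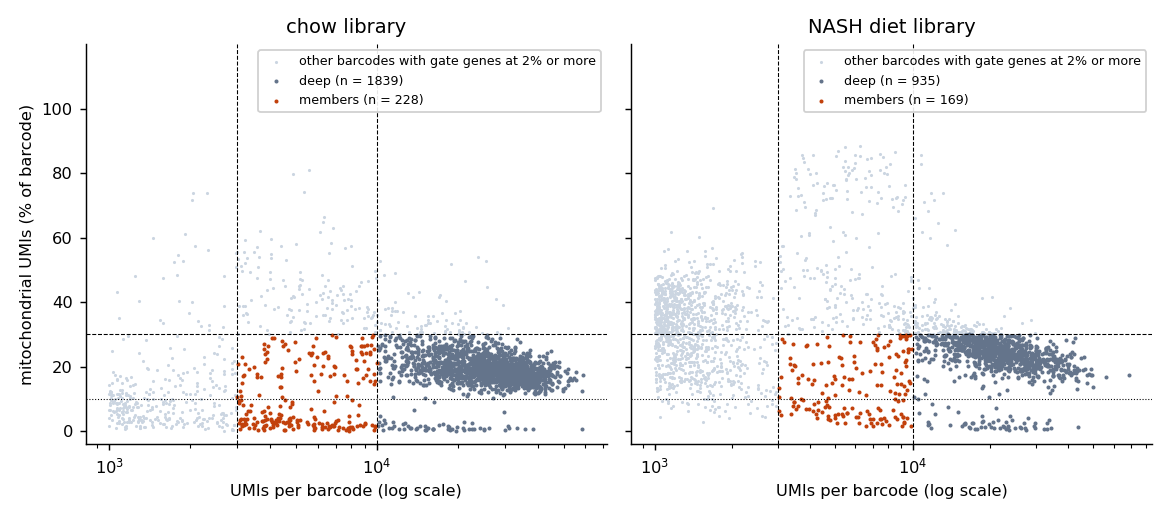
UMIs per barcode (x axis, log scale) against the share of UMIs from mitochondrial genes (y axis, percent) for members, deep barcodes and, in pale points, other barcodes with the 5 transcripts at 2% or more, 1 panel per library; dashed lines are the limits and the dotted line is 10%. Members under 10% mitochondrial, 57.9% in the chow and 42.0% in the NASH diet library, form the lower band at left, where deep barcodes are sparse.

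At 3000 UMIs the median number of genes was 1054.5 in chow members (441 to 1447) and 1033 in chow deep barcodes, and 1109 in NASH diet members (872 to 1554) against 1069. Without thinning the medians were 1459 and 3962 in the chow and 1785 and 3640 in the NASH diet library, so most of the difference in gene number between the classes was absent at equal UMIs. The thinned difference changed sign within the 10% to 20% mitochondrial band and without mitochondrial genes.

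Ribosomal proteins, the subunits of the machine that makes proteins, tracked the mitochondrial share. Their mRNAs had a median of 66.6 UMIs per 1000 non-mitochondrial UMIs in chow members and 47.4 in chow deep barcodes, and 60.3 against 42.3 in the NASH diet library. Chow members had 93.3 under 10% mitochondrial, 31.2 at 10% to 20% and 29.4 at 20% to 30%, where deep barcodes had 108, 48.0 and 45.0. NASH diet members had 79.2, 60.7 and 30.8, against 72.7, 51.3 and 39.7. The median over all members therefore exceeded that of deep barcodes, while in chow it was below it inside each of the 3 bands.

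Nuclear-encoded subunits of oxidative phosphorylation, the respiratory chain and ATP synthase parts made in the cytosol, followed the same order. Chow members had medians of 44.5, 14.9 and 15.3 UMIs per 1000 from the lowest to the highest band, and deep barcodes 50.3, 19.96 and 18.6. NASH diet members had 53.3, 43.2 and 21.7, and deep barcodes 51.7, 27.4 and 22.9. So the mRNAs of nuclear-encoded subunits were densest where mitochondrially encoded RNA was scarcest.

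Hepatocyte membrane transporters, which move glucose, bile acids and amino acids across the cell surface or the inner mitochondrial membrane, had the opposite order. Their medians in chow members were 1.39, 5.32 and 5.77 UMIs per 1000 from the lowest to the highest band, and 1.03, 5.09 and 5.92 in deep barcodes. In NASH diet members they were 1.72, 2.54 and 8.09, and in deep barcodes 1.37, 7.49 and 8.02. Plasma proteins outside the 5 of the limit went the same way, with medians of 87.3, 175 and 189 in chow members and 77.6, 93.5 and 121 in NASH diet members. NASH diet members of the middle band lay nearer to the lowest band than the chow members did.

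Genes of lipid droplets and fatty acid binding went with the ribosomal proteins. Their medians were 18.7, 4.13 and 3.06 UMIs per 1000 in chow members and 39.4, 32.1 and 9.70 in NASH diet members. Fabp1, which carries fatty acids through the hepatocyte cytosol, made up most of this level. It was at 18139, 5591 and 3058 non-mt CPM in chow members and at 34021, 25609 and 12579 in NASH diet members.

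**Figure D2:**
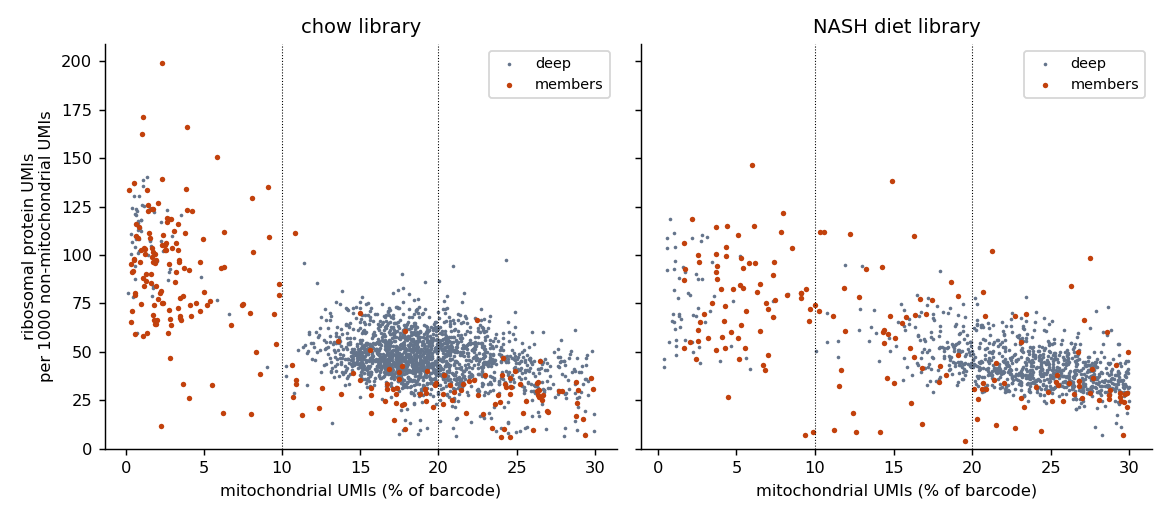
Share of mitochondrial UMIs (x axis, percent) against UMIs of ribosomal protein genes per 1000 non-mitochondrial UMIs (y axis) for members and deep barcodes, 1 panel per library, with dotted lines between the bands. In both libraries members under 10% mitochondrial sit highest, at medians of 93.3 and 79.2, and those of 20% to 30% lowest, at 29.4 and 30.8.

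Single genes show the size of the difference between bands. Apob, the structural protein of very low density lipoprotein, was at 456, 2132 and 2711 non-mt CPM in chow members from the lowest to the highest band, and at 178, 2892 and 2725 in deep barcodes. In NASH diet members it was at 263, 1219 and 2483, and in deep barcodes at 89.9, 2872 and 3116. Apob was low under 10% mitochondrial at either depth. Slc2a2, the main glucose transporter of hepatocytes, was at 10.4, 107 and 129 in chow members and at 14.9, 160 and 265 in NASH diet members. Alb went from 6085 through 33381 to 41625 in chow members and from 7565 through 15189 to 47860 in NASH diet members.

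Ubb and Txn1 went the other way. Ubb, which encodes ubiquitin, was at 2008, 339 and 250 non-mt CPM in chow members and at 1990, 1442 and 422 in NASH diet members. In deep barcodes it was at 1912, 256 and 240, and at 2098, 424 and 268. Txn1, thioredoxin, was at 1408, 242 and 186 in chow members and 1375, 863 and 422 in NASH diet members. Hnf4a, the transcription factor that maintains hepatocyte identity, moved little by comparison, at 156, 204 and 218 in chow members and 139, 89.0 and 108 in NASH diet members. Ttr was likewise near level in chow members, at 7738, 7325 and 6334.

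With mitochondrial genes left out before thinning to 2000 UMIs, members under 10% mitochondrial were set against members of 20% to 30%. The median log2 ratio of ribosomal proteins was 1.76 in the chow and 1.09 in the NASH diet library, of oxidative phosphorylation subunits 1.77 and 1.08, and of proteasome subunits, the parts of the complex that degrades ubiquitin-tagged proteins, 1.67 and 1.04. Transporters had medians of -1.90 and -2.04, plasma proteins -1.92 and -1.82, drug and steroid cytochrome P450 enzymes -1.75 and -2.19, and endoplasmic reticulum folding and export genes -1.11 and -1.47. Cytoskeleton genes were at 1.05 and 0.53 and interferon response genes at 1.003 and 1.04. Hepatocyte transcription factors had smaller medians of -0.19 and -0.38, and major urinary proteins, the pheromone carriers that male mice secrete in bulk, had 0.07 and -0.20. Pericentral genes had 0.09 and -1.14, so their medians pointed apart between the libraries.

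Malat1, a long nuclear noncoding RNA (chromosome 19, 5795690 to 5802672, minus strand, GRCm38), went with the mitochondrial share in most members. That share had a median of 3.36% in chow members with 0 Malat1 UMIs and 23.8% in those with 1 to 29. In the NASH diet library the medians were 7.82% and 23.1%. Members with at least 30 Malat1 UMIs departed from this, at 6.19% and 16.1%. At 3000 UMIs, detection of Malat1 was as follows. Malat1 had a UMI in 61 of 228 chow members (26.8%, 21.1 to 33.0) and 64 of 169 NASH diet members (37.9%, 30.5 to 45.6) at 3000 UMIs, against 83.3% and 78.0% of deep barcodes. Without thinning the shares were 30.7% and 45.0% of members and 96.6% and 94.7% of deep barcodes. All nucleated cells make Malat1, so no cell type that should lack it was at hand to give the background from free RNA. Its summed level ran against the shares, at 1971 CPM in chow members and 951 in deep barcodes, and at 5166 and 906 in the NASH diet library. No order between members and deep barcodes is read from the shares for that reason.

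A few members held most of the Malat1 UMIs. At least 30 of 3000 UMIs were Malat1 in 9 chow members (53 to 266, median 85) and in 15 NASH diet members (41 to 372, median 131), but in 1 chow deep barcode and 0 NASH diet deep barcodes. This limit was chosen after the values were seen. Below it, the members together held 170 Malat1 UMIs in chow, or 290 non-mt CPM, and 106 under the NASH diet, or 267 non-mt CPM. Deep barcodes below it held 1160 and 1167 non-mt CPM. Since the limit is on Malat1 itself, these levels are a description of how its UMIs were spread over barcodes. Inside the lowest mitochondrial band the members below the limit were not lower than deep barcodes.

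The Malat1-rich members had little ribosomal protein mRNA and much transporter mRNA. Their median ribosomal protein level was 26.9 UMIs per 1000 non-mitochondrial UMIs in the chow and 9.80 in the NASH diet library, against 80.3 and 72.0 in members with no Malat1 UMI. Oxidative phosphorylation subunits stood at 14.5 and 6.09 against 39.9 and 50.6. Transporters stood at 7.42 and 12.6 against 1.77 and 1.81, and hepatocyte transcription factors at 6.21 and 11.1 against 2.03 and 2.69. Members with 1 to 29 Malat1 UMIs lay between for ribosomal proteins in the NASH diet library, at 36.6, and near the rich ones in the chow library, at 30.8.

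The Malat1-rich members were not the deepest ones. Their UMIs ran from 3001 to 9830 (median 4012) in the chow library and from 3490 to 9547 (median 6029) in the NASH diet library. Their mitochondrial share ran from 2.23% to 15.7% and from 4.46% to 29.6%. Their thinned gene counts had medians of 1233 and 1369, above those of members with no Malat1 UMI, at 1076 and 1110. By band, 6, 3 and 0 of the chow ones and 3, 7 and 5 of the NASH diet ones lay under 10%, at 10% to 20% and at 20% to 30%.

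**Figure D3:**
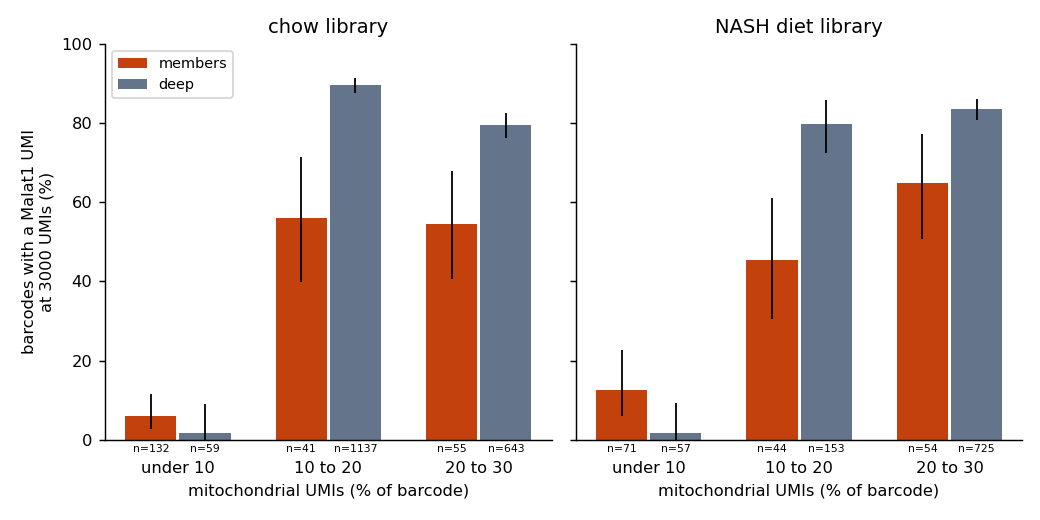
Share of barcodes with a Malat1 UMI at 3000 UMIs (y axis, percent) by band of mitochondrial share (x axis) in members and deep barcodes, 1 panel per library; lines are exact 95% binomial intervals for counting error. In the band under 10% mitochondrial the shares were 6.06% and 12.7% in members and 1.69% and 1.75% in deep barcodes; no order between all members and all deep barcodes is read from the shares, since 9 and 15 members hold most of the members' Malat1 UMIs and the summed level over all bands runs against them.

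Under 10% mitochondrial, Malat1 had a UMI in 8 of 132 chow members (6.06%) and 9 of 71 NASH diet members (12.7%), and in 1 of 59 and 1 of 57 deep barcodes. At 20% to 30% it had a UMI in 30 of 55 (54.5%) and 35 of 54 (64.8%) members. In barcodes under 10% mitochondrial and under 30 Malat1 UMIs the level was 21.8 non-mt CPM in chow members and 41.4 in NASH diet members, and 17.2 and 5.99 in deep barcodes. Low mitochondrial RNA and low Malat1 therefore went together in nearly all members of the lowest band, at both depths. Neat1, the noncoding RNA that builds nuclear paraspeckles, was at 284, 804 and 250 non-mt CPM in chow members and at 5.74, 579 and 530 in deep barcodes. In the NASH diet library it was at 561, 1450 and 1440 in members and at 0, 450 and 406 in deep barcodes. Few members carried these levels: in the lowest band 1 chow barcode held 70 of 109 Neat1 UMIs, and without barcodes of 30 or more Neat1 UMIs the member levels were 102, 447 and 250 in the chow and 51.0, 653 and 1013 in the NASH diet library.

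Of 3917 genes in the chow library, 239 were at least 2-fold higher in members than in deep barcodes (6.1%) and 89 lower (2.27%). Of 4303 genes in the NASH diet library, 291 were higher (6.76%) and 135 lower (3.14%). Of 3695 genes past the level limit in both libraries, 139 were higher in both (3.76%) and 32 lower in both (0.866%), and 0 were called in opposite directions. Over all genes the median ratio was 0.02 in chow and 0.17 on the NASH diet. The members were chosen by depth, mitochondrial share and 5 transcripts of the same barcodes, so these counts describe the contrast and carry no test. Which direction held more genes turned with the settings: without mitochondrial genes 150 were higher and 157 lower in chow, at 10% to 20% mitochondrial 115 and 223, and with the 5 transcripts at 5% or more 96 and 226. With the mitochondrial limit at 20%, 146 were higher and 279 lower on the NASH diet.

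Ubb was higher in members of both libraries. It lies at chromosome 11, 62551171 to 62553213. It was at 1222 CPM in chow members and 256 in deep barcodes, a log2 ratio of 2.21 (2.09 to 2.33), and at 1211 and 338 in the NASH diet library, with a ratio of 1.81 (1.67 to 1.96). Proteasome subunits were higher with it. Psmb5, the catalytic subunit with chymotrypsin-like activity (chromosome 14, 54614119 to 54618022), was at 289 and 66.3 CPM in the chow and 292 and 81.3 in the NASH diet library. Psmb6, another catalytic subunit, was at 338 and 96.1, and at 286 and 88.1. Of 36 proteasome genes, a list added after the ranked genes were seen, 35 had a ratio above 0 in the chow and 34 in the NASH diet library. Their medians were 0.96 (0.61 to 1.28) and 1.01 (0.52 to 1.33). At least 2-fold higher were 17 and 19 of them, where 6.1% and 6.76% of all genes were. Psmb5 and Psmb6 are on this list, so it is a description only.

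Txn1, Gstp1, Hspb1, S100a10 and Mrps28 were also among the 10 genes raised most in both libraries. Txn1 was at 860 CPM in chow members and 280 in deep barcodes, and at 838 and 283 in the NASH diet library. Gstp1, a glutathione transferase, was at 314 and 87.2, and at 402 and 99.5. Hspb1, a small heat shock protein, was at 92.1 and 25.6, and at 105 and 23.2. S100a10, a small partner of annexin A2, was at 399 and 132, and at 631 and 193, and Mrps28, of the mitochondrial ribosome, at 107 and 17.9, and at 76.9 and 14.97. All 5 were over 2-fold higher in both libraries, with ratios from 1.52 to 2.06. With only 10% to 20% mitochondrial kept, none of the 5 was 2-fold higher in chow. The chow ratios there were -0.20 for Txn1, -0.21 for Gstp1, -0.53 for Hspb1, 0.32 for Mrps28 and 0.77 for S100a10. On the NASH diet none of the 5 changed sign in any alternative.

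The remaining genes of the 10 raised most in both libraries, AY036118 and Lars2, need care. AY036118 (chromosome 17, 39847113 to 39848035, minus strand) lies inside Gm42418 (39846958 to 39848788, plus strand) in a ribosomal RNA repeat, and reads from that repeat may be shared among these genes, Gm26917 and Lars2. Their values are uncertain for that reason. AY036118 was at 288 CPM in chow members and 16.1 in deep barcodes, and at 580 and 70.9 in the NASH diet library. Lars2 was at 143 and 44.4, and at 280 and 73.4. AY036118 was higher in members than in deep barcodes within each band. It was at 422, 155 and 153 non-mt CPM against 172, 13.8 and 13.5 in the chow library. In the NASH diet library it was at 829, 774 and 331 against 366, 66.2 and 69.3.

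Ribosomal protein and respiratory chain genes were higher as groups by less than 2-fold. Of 78 ribosomal protein genes, 74 had a ratio above 0 in the chow and 76 in the NASH diet library, with medians of 0.70 (0.55 to 0.85) and 0.63 (0.42 to 0.81). Of these, 7 and 8 of 78 were called higher, where 6.1% and 6.76% of all genes were, among them Rpl21, at 735 and 296 CPM in the chow and 566 and 256 in the NASH diet library. Rps26 was called in both too, at 674 and 286 and at 497 and 219, whereas Rpl41 was level at 2288 and 2340 and at 1732 and 1723. Of 49 oxidative phosphorylation subunits, 47 were above 0 in each library, with medians of 0.84 (0.704 to 0.995) and 0.73 (0.57 to 0.94), and 16 and 14 were called. Uqcrb, a subunit of complex III, was at 860 and 245 CPM, and at 886 and 323. Ndufs5, of complex I, was at 308 and 118, and at 400 and 126.

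These group differences did not hold inside every mitochondrial band. Under 10% mitochondrial the median ratio of ribosomal proteins was -0.20 in the chow and -0.02 in the NASH diet library, and of oxidative phosphorylation subunits -0.19 and -0.04. Inside the band of 20% to 30% they were -0.67 and -0.10, and -0.40 and 0.09. In between, at 10% to 20%, they were -0.41 and 0.23, and -0.15 and 0.45. Chow members were thus at or below deep barcodes in each band, and on this ratio NASH diet members were above them for ribosomal proteins only at 10% to 20%. Proteasome subunits had per-barcode medians of 7.77, 2.41 and 2.29 UMIs per 1000 non-mitochondrial UMIs in chow members against 8.41, 2.50 and 2.72 in deep barcodes, and of 8.11, 6.34 and 3.26 against 8.08, 3.24 and 2.75 in the NASH diet library.

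The 13 mitochondrially encoded mRNAs, of which the limit at 30% is made, were lower in members, 12 of 13 below 0 in each library at medians of -0.82 and -0.66. One of the 13, mt-Nd1, a subunit of complex I, was called lower in both libraries, at 4899 CPM in chow members and 10641 in deep barcodes, and at 6554 and 13338 in the NASH diet library. mt-Co1, of complex IV, was at 17411 and 34044, and at 22720 and 42243, just short of 2-fold.

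The genes lowered most differed in what they do. Among the 10 genes lowered most in both libraries were Ly6e, Cpn2, Pigr, Cyp2f2, Tgoln1, Serpina3n, Myh9, Sec61a1 and Rnf128. Pigr, the receptor that carries immunoglobulin A into bile, was at 276 CPM in chow members and 696 in deep barcodes, and at 347 and 916 in the NASH diet library. Sec61a1, the channel through which secreted proteins enter the endoplasmic reticulum, was at 59.9 and 150, and at 43.4 and 112. Serpina3n, a secreted protease inhibitor of the acute phase, was at 554 and 1287, and at 128 and 347. Ly6e, a surface protein held by a lipid anchor, was at 174 and 485, and at 88.8 and 270, and Cpn2, Cyp2f2, Tgoln1, Myh9 and Rnf128 had ratios from -1.37 to -1.17. With only 10% to 20% mitochondrial kept, most fell short of 2-fold in chow. Tgoln1 was at -0.04, Sec61a1 at -0.36, Cpn2 at -0.55, Cyp2f2 at -0.61, Serpina3n at -0.68, Pigr at -0.69 and Ly6e at -0.83. Myh9 was at -2.32. On the NASH diet Tgoln1, Cyp2f2 and Serpina3n were at -1.42, -1.90 and -2.80 there. None of these genes changed sign in any alternative.

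Of 32 plasma protein genes outside the limit, 26 were below 0 in chow members and 28 in NASH diet members. Their medians were -0.38 and -0.83, with 1 and 10 called lower, where 2.27% and 3.14% of all genes were. Apob (chromosome 12, 7977648 to 8016835) was lower in both, at 1069 and 2222 CPM in the chow and 966 and 2204 in the NASH diet library. Fga, a chain of fibrinogen, was at 4753 and 8837, and at 1122 and 2909, which was 2-fold lower in the NASH diet library alone. Apoc1, a small apolipoprotein, was higher in members by under 2-fold, at 14127 and 10741 and at 20673 and 14920. The difference between libraries in the number called was not tested.

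Endoplasmic reticulum folding and export genes had medians of -0.30 and -0.54, with 17 and 18 of 28 below 0 and 2 and 4 called lower. Over all genes 2.27% and 3.14% were called lower. P4hb, which forms disulfide bonds in secreted proteins, was at 385 and 885 CPM in the chow and 335 and 755 in the NASH diet library. Calr, a chaperone of glycoproteins, was at 675 and 1257, and at 241 and 639. All 21 transporters past the level limit were below 0 in the chow library, at a median of -0.50, and 17 of 22 in the NASH diet library, at -0.62, with 1 and 3 called lower, where 2.27% and 3.14% of all genes were. Slc2a2 (chromosome 3, 28697903 to 28731359) was at 45.3 and 119, and at 105 and 246. From the lowest to the highest mitochondrial band the transporter medians were 0.41, -0.044 and -0.20 in the chow and 0.56, -0.28 and -0.07 in the NASH diet library. They were above 0 in the lowest band, and in the NASH diet library they were lowest at 10% to 20%.

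**Figure D4:**
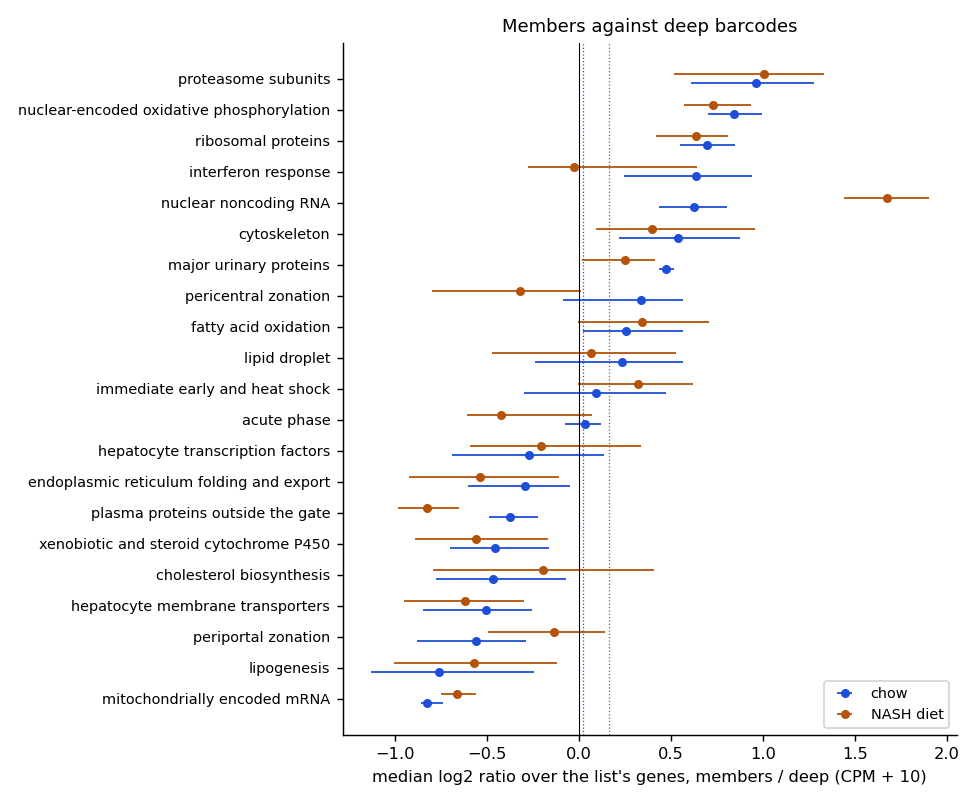
Median log2 ratio (CPM + 10) of members to deep barcodes for each gene list (rows), chow and NASH diet library as separate points; dotted lines are the medians of all genes, and whiskers run from the median of the genes' lower counting bounds to that of their upper bounds. Proteasome, oxidative phosphorylation and ribosomal protein lists lie above 0 in both libraries, at 0.96 and 1.01, 0.84 and 0.73, and 0.70 and 0.63. Mitochondrial mRNAs, transporters, P450 enzymes and plasma proteins lie below 0 in both. The proteasome list was added after the ranked genes were seen.

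Cytochrome P450 enzymes of drug and steroid metabolism were below 0 for 17 of 19 genes in the chow and 19 of 19 in the NASH diet library. Their medians were -0.46 and -0.56, with 1 and 3 called, where 2.27% and 3.14% of all genes were. Cyp4v3, a fatty acid hydroxylase, was at 108 and 227 CPM, and at 118 and 337. Cyp3a11, a main drug-oxidising enzyme, was at 661 and 980, and at 485 and 1055. The chow median changed sign at 10% to 20% mitochondrial.

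Periportal genes were on the low side in members of both libraries by under 2-fold, and pericentral genes pointed apart. Pericentral genes had a median of 0.34 in chow members, with 12 of 18 above 0, and of -0.32 in NASH diet members, with 14 of 19 below 0. Periportal genes had medians of -0.56 and -0.14, with 15 of 21 below 0 in each. Against deep barcodes under 20000 UMIs alone the NASH diet medians were 0.29 for pericentral and -0.49 for periportal genes, in the direction of the chow library, and with the mitochondrial limit at 20% they were -0.997 and 0.15. Pericentral UMIs exceeded periportal ones in 88 of 228 chow members (38.6%, 32.2 to 45.2) and 43 of 169 NASH diet members (25.4%, 19.1 to 32.7), against 28.3% and 28.8% of deep barcodes. Without thinning the member shares were 39.5% and 27.2%. The order of members and deep barcodes turned with the mitochondrial band. From the lowest to the highest band the shares were 39.4%, 43.9% and 32.7% of chow members against 32.2%, 19.4% and 43.7% of deep barcodes. In the NASH diet library they were 21.1%, 38.6% and 20.4% against 15.8%, 55.6% and 24.1%. Single genes of 1 zone went both ways: Ass1, a periportal urea cycle enzyme, was at 1749 CPM in chow members and 828 in deep barcodes, while Cyp2f2, a periportal cytochrome P450, was at 357 and 859. Rgn, a calcium-regulated protein on the pericentral list, was at 1545 and 642, while Cyp2e1, the pericentral alcohol-oxidising enzyme, was at 934 and 1289.

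In lipid metabolism the members differed gene by gene. Fabp1 (chromosome 6, 71199827 to 71205023) was at 11569 CPM in chow members and 4922 in deep barcodes, a ratio of 1.23 (1.20 to 1.27), and at 22193 and 10243 in the NASH diet library, with a ratio of 1.11 (1.08 to 1.15). Fabp2, a related carrier, was at 197 and 71.4, and at 619 and 248. These 2 were the called genes of the lipid droplet list, whose medians were 0.24 and 0.07. Cpt1a, the gate of fatty acid entry into mitochondria, was lower in members, at 57.0 and 171, and at 150 and 319. Eci1, an enzyme for unsaturated fatty acids in the same pathway, was higher, at 148 and 59.8, and at 359 and 119. Fatty acid oxidation genes as a list had medians of 0.26 and 0.34.

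Lipogenesis genes had medians of -0.76 and -0.57, with 1 gene called in each direction in each library. Of all genes, 6.1% and 6.76% were called higher and 2.27% and 3.14% lower. Thrsp, a lipogenic regulator, was higher, at 247 and 87.5 CPM and at 473 and 218. Scd1, which makes monounsaturated fatty acids, was lower by just under 2-fold, at 721 and 1345 and at 5479 and 10699. Cholesterol synthesis genes had medians of -0.47 and -0.19.

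The other lists were nearer to 0 or differed between the libraries. Cytoskeleton genes had medians of 0.54 and 0.40, with 17 of 19 and 19 of 19 above 0, major urinary proteins 0.48 and 0.25, and interferon response genes 0.64 and -0.02. Acute phase genes had 0.03 and -0.42, immediate early and heat shock genes 0.10 and 0.32, and hepatocyte transcription factors -0.27 and -0.20. Hamp, the iron hormone hepcidin on the acute phase list, was higher in members, at 8231 and 3876 CPM and at 3392 and 1499. Cell cycle genes had 0 past the level limit in the chow library and 1, Pcna, in the NASH diet library, at a ratio of 0.71. Nuclear noncoding RNAs had medians of 0.62 and 1.67, with 3 and 7 of 8 called higher, where 6.1% and 6.76% of all genes were. Without the Malat1-rich barcodes these medians were -0.61 and -0.19. The list holds the repeat genes AY036118, Gm42418 and Gm26917 and the protein-coding Lars2, among which reads may be shared, so its values are uncertain.

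Transcript length went with the ratios. Genes were placed by their longest protein-coding transcript in the GENCODE annotation, which gave a length to 3867 of 3899 chow genes (99.2%) and 4243 of 4285 NASH diet genes (99.0%). In the chow library the median ratio was 0.77 for 380 genes under 1000 nucleotides, 0.44 for 1069 genes at 1000 to under 2000, -0.10 for 1394 at 2000 to under 4000 and -0.39 for 1024 of 4000 or more. In the NASH diet library it was 0.73, 0.49, 0.03 and -0.15 over 398, 1117, 1541 and 1187 genes. Among the shortest, 91 chow genes (23.9%) were called higher and 0 lower, and among the longest 9 were called higher and 52 lower (5.08%).

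The shortest genes were as high without ribosomal protein and oxidative phosphorylation genes, at medians of 0.78 over 298 genes and 0.75 over 316. The called genes that were higher had median lengths of 1145.5 nucleotides in the chow and 1215 in the NASH diet library, and those that were lower 4417.5 and 3679, against 2551 and 2639 for all genes. Among the lists, oxidative phosphorylation subunits had a median length of 727.5 nucleotides, ribosomal proteins 925.5 and proteasome subunits 1591. Transporters had 3863.5 and lipogenesis genes 3960.5.

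Inside bands the length gradient of members to deep barcodes was mostly absent, with an exception on the NASH diet. Inside the band under 10% mitochondrial the chow medians of members to deep barcodes from the shortest to the longest class were -0.12, -0.11, -0.08 and -0.08, and the NASH diet medians -0.02, 0.00, 0.06 and 0.23. At 10% to 20% the chow medians were -0.13, 0.01, -0.07 and -0.10, while the NASH diet medians kept a gradient, at 0.42, 0.31, -0.01 and -0.14. At 20% to 30% they were -0.28, -0.11, -0.12 and -0.11, and 0.12, 0.16, 0.04 and 0.17. Between bands the gradient was wide: members under 10% against members of 20% to 30% had 1.51, 0.70, -0.20 and -0.68 in the chow and 0.95, 0.42, -0.30 and -0.86 in the NASH diet library. Deep barcodes set against each other in the same way had 1.34, 0.72, -0.20 and -0.74, and 1.13, 0.66, -0.25 and -1.04. The gradient between bands was thus present at both depths. The part of cell state, of RNA loss and of capture in it was not tested.

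Depth below the members continued the order in part. After thinning all barcodes to 1000 UMIs, hepatocyte barcodes of 1000 to under 3000 UMIs, members and deep barcodes had mean ribosomal protein levels of 83.4, 69.5 and 49.8 UMIs per 1000 non-mitochondrial UMIs in the chow and 80.2, 61.1 and 45.4 in the NASH diet library. Transporters stood at 2.27, 3.22 and 5.50, and at 2.36, 4.50 and 7.49. The members lay between the shallower and the deeper barcodes on both measures. The share under 10% mitochondrial did not follow in the NASH diet library: it was 62.7% of the shallower chow barcodes but 8.07% of the shallower NASH diet ones.

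Barcodes just inside and just outside the limits had like values at most of them. Within chow, the median ribosomal protein level was 72.5 in 21 barcodes just under 3000 UMIs and 74.9 in 28 just above, and 34.3 in 20 just under 10000 and 38.5 in 28 just above. At the mitochondrial limit it was 26.1 inside and 28.3 outside (8 each). At the limit of 2% for the 5 transcripts it was 109 in 25 inside and 123 in 20 outside. In the NASH diet library the first 3 limits gave 81.4 inside (7) and 69.8 outside (14), 34.3 (28) and 33.5 (17), and 27.99 (15) and 30.1 (16). The limit of 2% parted there, at 88.3 in 17 inside and 12.9 in 26 outside, with transporters at 2.27 and 9.91.

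The diets were then compared within the members. Of 4145 genes, 239 were at least 2-fold higher in NASH diet members than in chow members (5.77%) and 138 lower (3.33%). In deep barcodes 82 of 4084 were higher (2.01%) and 103 lower (2.52%). Members are far fewer than deep barcodes, so their sums hold fewer UMIs and their ratios carry more counting error. No difference in the extent of the diet contrast is therefore read from numbers called in the classes, here or below. With a pseudocount of 50 CPM the member counts were 46 higher and 73 lower. The median over all genes was 0.19 in members and 0.11 in deep barcodes. Members of the 2 libraries also differed in mitochondrial share (57.9% and 42.0% under 10%), and diet, library and that share cannot be told apart over all members.

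Acute phase genes, which the liver secretes in inflammation, were lower in NASH diet members. All 20 were below 0 and 17 called lower, at a median of -2.39 (-2.66 to -1.88), and 17 of 20 were called in deep barcodes at a median of -1.87. Over all genes 3.33% were called lower in members and 2.52% in deep barcodes. Saa2, a serum amyloid A protein (chromosome 7, 46751790 to 46754313), was at 26563 CPM in chow members and 327 in NASH diet members, a ratio of -6.30 (-6.52 to -6.08), and its ratio in deep barcodes was -5.84. Saa1, its near copy, went from 22134 to 647. Reads may be shared between these copies.

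Other secreted defence proteins had ratios of the same order. Saa3 was at 1010 CPM in chow members and 9.86 in NASH diet members, Orm2, an acid glycoprotein, at 727 and 13.8, and Apcs, serum amyloid P, at 1465 and 49.3. Lcn2, which withholds iron from bacteria, was at 2152 and 71.0. Their ratios in members ran from -5.68 to -4.64 and in deep barcodes from -5.07 to -4.17. The median of the list was -2.40, -2.76 and -2.13 in the 3 bands from the lowest to the highest mitochondrial share, so it was as low inside bands.

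Cholesterol synthesis genes were lower in NASH diet members as well. The part of the cholesterol in the diet was not tested. Of 20 genes 19 were below 0 and 15 called lower, at a median of -2.09, and 17 of 21 in deep barcodes at -1.98. The shares called lower over all genes were 3.33% and 2.52%. Fdps, which builds farnesyl diphosphate, was at 544 and 13.8 CPM, a ratio of -4.54, and Hmgcs1, at the head of the pathway, at 423 and 39.4, a ratio of -3.13. Idi1, an isomerase between them, was at 444 and 5.92, the latter from 3 UMIs. The band medians were -1.83, -2.41 and -2.08.

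Fatty acid oxidation genes were higher in NASH diet members: 24 of 24 were above 0 and 15 called higher, at a median of 1.06 (0.66 to 1.48). In deep barcodes 24 of 24 were above 0 and 5 called, at 0.88. Over all genes 5.77% were called higher in members and 2.01% in deep barcodes. Cpt1a was at 57.0 CPM in chow members and 150 in NASH diet members. Cyp4a10 and Cyp4a14, near copies that oxidise fatty acids at the omega end, were at 7.31 and 219, and at 1.46 and 144, the last chow value from 1 UMI. Lipid droplet genes were above 0 for 11 of 11 genes in members and in deep barcodes, with 6 called in each, at medians of 1.03 and 1.06. Fabp2 went from 197 to 619.

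Lipogenesis genes had a median of 0.57 in members. Called higher were 4 of 14 and lower 2, where 5.77% and 3.33% of all genes were. Scd1 (chromosome 19, 44394455 to 44407879) stood out among them, at 721 CPM in chow members and 5479 in NASH diet members, a ratio of 2.91 (2.77 to 3.05), and its ratio in deep barcodes was 2.98. Hsd17b6, a steroid dehydrogenase, went from 13.2 to 207 and Nr1i3, the xenobiotic receptor CAR, from 55.6 to 239. Dbp, a transcription factor of the circadian clock, went from 2.92 to 114, the chow value from 2 UMIs. The labels used here give no hour of tissue collection.

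Plasma proteins outside the limit were lower in NASH diet members, 28 of 32 below 0 with 14 called, at a median of -0.67. In deep barcodes 9 were called, at -0.28. The shares called lower over all genes were 3.33% in members and 2.52% in deep barcodes. Endoplasmic reticulum genes had -0.46 in members and -0.35 in deep barcodes, major urinary proteins -0.78 and -0.40, interferon response genes -0.40 and 0.07, and periportal genes 0.52 and 0.42. Ribosomal proteins had -0.20 and -0.15, oxidative phosphorylation subunits 0.12 and 0.23, proteasome subunits 0.10 and 0.10, transporters 0.34 and 0.24, and P450 enzymes -0.04 and 0.14. Proteasome, oxidative phosphorylation and ribosomal protein lists thus lay near 0 between the diets over all members, but not at 10% to 20% mitochondrial, where their diet medians in members were 1.08, 1.24 and 0.78.

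**Figure D5:**
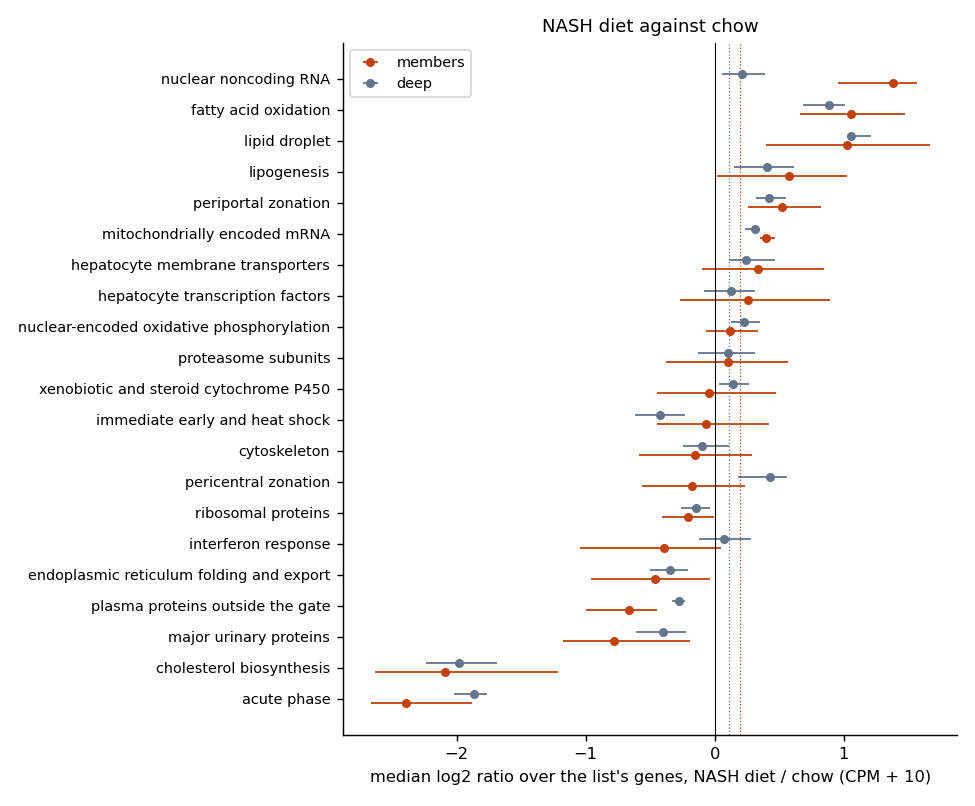
Median log2 ratio (CPM + 10) of the NASH diet library to the chow library for each gene list (rows), members and deep barcodes as separate points; dotted lines are the medians of all genes, and whiskers are drawn as for the members against deep barcodes. Acute phase and cholesterol synthesis lists lie lowest in both classes, at -2.39 and -1.87 and at -2.09 and -1.98, and lipid droplet and fatty acid oxidation lists lie near 1; 1 library stands behind each diet.

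The diet ratio differed between members and deep barcodes for some genes, as a size without a test. Glul, the pericentral glutamine synthetase, was at 573 and 611 CPM in chow and NASH diet members but at 249 and 754 in deep barcodes. Its diet ratio in members less that in deep barcodes was -1.47. This moved with the member limits: the diet ratio in members was 0.09 as reported and 2.37 with the 5 transcripts at 5% or more; under that limit the ratio of Lhpp changed sign, from -0.90 to 0.48. Pericentral genes as a list had a median of -0.18 in members and 0.43 in deep barcodes, which turned with the band: -0.81, 0.38 and 0.39 in members and -0.78, 1.64 and -0.23 in deep barcodes. Lhpp, Cyp2a5 and Serpina7 had differences from -1.86 to -1.32. On the other side Gm26917, Bmp1, Neat1, Aspg and Mlxipl had differences of 2.29, 2.13, 1.97, 1.65 and 1.62. The ratio of NASH diet members to deep barcodes changed sign for each of these genes without barcodes of at least 30 Malat1 UMIs. Gm26917 went from 1.86 to -0.96, Neat1 from 1.55 to -1.57 and Mlxipl from 0.98 to -0.66. With those barcodes kept, Bmp1 and Aspg were at 0.75 and 0.94.

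Nuclear noncoding RNAs had a diet median of 1.38 in members and 0.21 in deep barcodes. In members 5 of 8 were called higher, where 5.77% of all genes were. The list holds AY036118, Gm42418, Gm26917 and Lars2, among which reads may be shared, so its median is uncertain. Neat1 was at 326 CPM in chow members and 888 in NASH diet members, and at 439 and 297 in deep barcodes. Without the 15 Malat1-rich NASH diet members and the 9 chow ones the list's diet median in members was 0.73, Gm26917 was at 0.79 and Neat1 at -0.53, so the list stayed above 0 and Neat1 changed sign. Mlxipl, which senses carbohydrate and drives lipogenesis, was at 38.0 and 108 in members and 65.1 and 50.3 in deep barcodes. Its diet ratio in members was 1.30, and 0.15 without the Malat1-rich barcodes.

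Haemoglobin transcripts were 4 of the 8 genes with the highest diet ratio in members, and they came almost wholly from 1 barcode. Hbb-bs had 736 UMIs in NASH diet members, Hba-a1 180, Hbb-bt 134 and Hba-a2 106, and all 4 had 0 in chow members. The member with 1160 erythroid UMIs held from 98.9% to 100% of each. No fold is given for these genes.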

How the data were processed

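Single-cell RNA was captured with 10x chemistry, version 3 per the labels, from 1 liver library on each diet. Per the submitters' processing notes the reads were handled with Cell Ranger 3.1.0 and Seurat on mm10, while per the file headers the software version was 3.0.2. The authors deposited, for each library, a matrix of whole UMI counts by gene and barcode, and a merged matrix whose chow part holds 61889255 UMIs, 86.4% of the chow library's own, used only as an alternative. No column lacked a sample.

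Barcodes were classed on all their UMIs and then thinned without replacement to 3000 UMIs (1000 for 3 depth classes, 2000 without mitochondrial genes, seed 0). UMIs were summed by gene, with a pseudocount of 10 CPM, a level limit of 20 CPM over both classes and a 2-fold limit for calls. Python 3.11.15, numpy 2.4.6, scipy 1.17.1, pandas 2.3.3 and matplotlib 3.10.9 were used, and the thinning and the ratios were checked on simulated data. Scrublet (in scanpy 1.11.5) marked no barcode as a doublet in either library and so was taken not to have worked; members and deep barcodes stayed in, and an alternative left out the barcodes with the highest scores (433 and 277, or 0.8% per 1000 barcodes). Annotation and lengths came from GENCODE on GRCm38, the assembly that the notes name mm10.

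Members and gene lists were chosen with earlier results of these data known. Genes named are the 10 called in each direction in both libraries with the largest smaller ratio, the 8 largest diet ratios each way, the 5 largest differences in diet ratio each way, up to 2 by level and 2 by ratio in each list, and the 5 genes of the limit. Some genes that this rule names are not reported here. Mup22 and Rian, on the lists, were not found under those symbols. The proteasome list and the limit of 30 Malat1 UMIs were added after the data were seen. Intervals are exact Poisson, conditional binomial or Clopper-Pearson, and an interval of a list runs from the median lower to the median upper bound of its genes. Alternatives changed the member limits, the thinning, the seed, the pseudocount, the level limit, the matrix, and the barcodes or genes left out.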

Additional observations from a re-analysis of the deposited data

How the results depend on the processing

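No paired analysis was possible because each diet has 1 library. In what follows "higher" and "lower" count genes called in members against deep barcodes unless the diets are named, and the causes of these shifts were not tested. For counts of members, counts of genes and the main lists, 208 alternative values stayed within 1.5 times or within the interval, 69 moved and 2 reversed. Those that did not stay are given here. The 2 that reversed were genes per barcode on the NASH diet, at 10% to 20% mitochondrial and without mitochondrial genes. For single genes and other lists 1502 stayed, 374 moved and 9 reversed.

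With only 10% to 20% mitochondrial kept, 115 genes were higher and 223 lower in chow, and 468 and 377 on the NASH diet; between diets 1193 were higher and 460 lower. The medians were -0.41 and 0.23 for ribosomal proteins, -0.15 and 0.45 for oxidative phosphorylation, -0.044 and -0.28 for transporters, and between diets -2.76 for acute phase and 1.64 for fatty acid oxidation. Genes per barcode differed by -21 and -10.5, and in chow Gstp1 (-0.21), Hspb1 (-0.53) and Txn1 (-0.20) reversed. With the mitochondrial limit at 20%, 475 were higher and 317 lower in chow and 146 and 279 on the NASH diet, genes per barcode differed by 58 and 0, oxidative phosphorylation was at 1.01 and 0.43, and NASH diet ribosomal proteins at 0.34. Without mitochondrial genes 150 were higher and 157 lower in chow, 251 lower on the NASH diet and 365 higher between diets; genes per barcode differed by -17.5 and -21, and chow ribosomal proteins and oxidative phosphorylation were at 0.51 and 0.64.

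At a limit of 5% for the 5 transcripts, members numbered 95 and 97, 96 genes were higher and 226 lower in chow, 577 higher between diets, chow ribosomal proteins were at 0.22 and oxidative phosphorylation at 0.41, and Neat1 on the NASH diet (-0.27) and Bmp1 between diets (-0.40) reversed. Members of 4000 to under 8000 UMIs numbered 121 and 90, with 171 lower in chow and 438 higher and 259 lower on the NASH diet. Against deep barcodes under 20000 UMIs, NASH diet members had 80 more genes per barcode and ribosomal proteins at 0.83. The merged matrix gave 28 lower in chow. Without thinning, 26 were lower in chow and 157 higher and 53 lower on the NASH diet.

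A pseudocount of 1 gave 392 higher and 217 lower in chow, 480 and 249 on the NASH diet and 432 higher between diets, with cholesterol synthesis at -2.73. A pseudocount of 50 gave 81 and 16, 86 and 35, and between diets 46 and 73, with acute phase at -1.88 and cholesterol synthesis at -1.13. A level limit of 50 CPM gave 46 lower in chow, 89 lower on the NASH diet and 105 higher between diets, and no limit 373 higher between diets.

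Without barcodes of at least 30 Malat1 UMIs, an alternative chosen after seeing the data, 144 were lower in chow and 233 on the NASH diet, and on the NASH diet the nuclear noncoding median (-0.19), Gm26917 (-0.96) and Neat1 (-1.57, and -0.53 between diets) reversed. Depth limits what single members show: at 3000 UMIs a gene at 20 CPM is expected in few of them.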
